A study of Homo sapiens with 12 samples.

Results

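The HOXC gene cluster was described through the regions of 10 deposited lists that overlap chromosome 12 from 54325000 to 54455000 (hg19), a window of 130 kb that runs from HOXC13 near 54.333 Mb to HOXC4 near 54.449 Mb. The window is defined by position, and it was picked with earlier results of these data known. It held 96 of the 262931 regions of the 10 lists. Its 9 members are HOXC13, HOXC12, HOXC11, HOXC10, HOXC9, HOXC8, HOXC6, HOXC5 and HOXC4, in their order along the chromosome in RefSeq, where the last 3 begin at the same base. The lists come from chromatin immunoprecipitation followed by sequencing (ChIP-seq) in SW620 and SW480, human colorectal adenocarcinoma cell lines labelled Dukes' type C for SW620 and Dukes' type B for SW480. Both lines were untreated. Antibodies recognised H3K4me3, H3K4me2, H3K27ac, H3K36me3 and the transcription factor FOXA2, with 1 library per antibody and line, so no difference between the lines has a replicate check or a test.

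HOX genes encode homeodomain transcription factors that give cells their position along the body axis, and genes at one end of a cluster act further towards the tail than genes at the other. HOXC13 is the most posterior HOXC gene and is known for hair and nail keratinisation. In the mouse, HOXC10 and HOXC11 act in the lumbosacral region, HOXC8 and HOXC9 in the thoracic region, and HOXC4, HOXC5 and HOXC6 at cervical to upper thoracic levels. H3K4me3 is found at active or poised promoters, H3K4me2 at promoters and enhancers, H3K27ac at active promoters and enhancers, and H3K36me3 over the bodies of transcribed genes. FOXA2, a forkhead protein needed for endoderm and liver, can bind DNA that is wrapped in nucleosomes.

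Besides the 9 coding genes, RefSeq lists antisense and other noncoding genes in the cluster. HOTAIR, a long noncoding RNA described in human fibroblasts as a repressor of HOXD genes, comes after HOXC12 and before HOXC11 in the order of starts, and the microRNA gene MIR196A2 lies between HOXC10 and HOXC9. MIR615 lies in the stretch shared by HOXC5 and HOXC4. The mature microRNAs are shown because RefSeq places their genes in the cluster and their identity is a sequence. Their expression was not measured, and no region was placed on them. They are on the plus strand of chromosome 12 (RefSeq, GRCh38.p14), and capitals mark the seed, bases 2 to 8. The 4 seeds differ from each other.
hsa-miR-196a-5p: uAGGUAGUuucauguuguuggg
hsa-miR-196a-3p: cGGCAACAagaaacugccugag
hsa-miR-615-5p: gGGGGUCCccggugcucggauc
hsa-miR-615-3p: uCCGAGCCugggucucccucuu

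A promoter sequence was at hand for 2 of the 9 members, HOXC4 and HOXC5, and it is the same 300 bases for both, since RefSeq lets them start at the same base. It is shown because the factor mapped in the series is a forkhead protein and the window holds letters of the forkhead core. The window is chr12:54016638-54016937 on the plus strand (RefSeq, GRCh38.p14), and capitals mark TGTTTAC, read on the minus strand from base 56, and TGTTTGC, read on the plus strand from base 117.
HOXC4 and HOXC5 promoter: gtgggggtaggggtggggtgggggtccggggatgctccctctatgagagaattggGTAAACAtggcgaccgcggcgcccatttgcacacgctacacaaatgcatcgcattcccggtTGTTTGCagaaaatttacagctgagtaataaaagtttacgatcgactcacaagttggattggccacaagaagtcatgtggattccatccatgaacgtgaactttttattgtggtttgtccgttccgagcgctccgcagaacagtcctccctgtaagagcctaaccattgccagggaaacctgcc
Of 34943 promoter windows in the same table, each counted once, 3.42% held TGTTTAC and 3.89% held TGTTTGC on either strand, and 0.143% held both. The HOXC4 and HOXC5 window has 15 CpG dinucleotides against a median of 14 over all windows, and 51.7% of its bases are G or C against a median of 58.7%. A match to these letters is not a binding site. The lists are on hg19 and these sequences on GRCh38, so no region was placed on them.

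Called H3K4me3 and H3K4me2 regions covered more of the HOXC window than of nearly every stretch of the genome with H3K4me3, in both lines. H3K4me3 covered 30.8 kb in SW620 in 13 regions and 29.1 kb in SW480 in 12 regions, which is 23.7% of the window in SW620 and 22.4% in SW480. The genome was cut into 9895 stretches of the same length with an H3K4me3 region in either line, as a description with no test. The stretches lay on a fixed grid that did not leave out the HOXC cluster, while the window was set around the cluster. Their median H3K4me3 coverage was 2.08% in SW620 and 2.36% in SW480, and 10 stretches in SW620 and 14 in SW480 reached the HOXC value. H3K4me2 covered 52.2 kb in 13 SW620 regions and 54.1 kb in 17 SW480 regions, or 40.1% of the window in SW620 and 41.7% in SW480. The medians over stretches were 4.35% in SW620 and 4.13% in SW480, and 18 SW620 and 4 SW480 stretches reached the HOXC value.

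H3K27ac was also dense, while H3K36me3 was not. H3K27ac covered 36.4 kb in 12 SW620 regions, or 28.0% of the window, and 39.1 kb in 14 SW480 regions, or 30.1%. The stretches had medians of 2.37% in SW620 and 2.97% in SW480, and 0.738% of them in SW620 and 0.606% in SW480 reached the HOXC coverage. H3K36me3 covered 7.85 kb in 4 SW620 regions and 7.02 kb in 5 SW480 regions. That is 6.04% of the window in SW620 and 5.40% in SW480, a coverage that 39.5% of stretches reached in SW620 and 43.1% in SW480. The cluster thus had promoter marks at the far end of the genome's range and gene body marks in the middle of it.

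Active marks were sparser in the adjoining windows than in the cluster, and sparser before HOXC13 than after HOXC4. In the window of the same length before HOXC13, H3K4me3 and H3K36me3 had no region in either line, and H3K4me2 covered 2.98% in SW620 and 0.770% in SW480. In the window after HOXC4, H3K4me3 covered 4.98% in SW620 and 3.41% in SW480, and H3K4me2 covered 10.5% in SW620 and 8.76% in SW480. H3K27ac on that side covered 6.75% in SW620 and 1.97% in SW480. The SW620 values of these 3 marks after HOXC4 were above the medians over stretches. So were the SW480 values of H3K4me3 and H3K4me2, while that of H3K27ac was below its median of 2.97%. H3K36me3 did not become sparser there in SW620: it covered 7.42% in 5 regions, more than the 6.04% in the cluster, while in SW480 it covered 1.54% in 2 regions.

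**Figure D1:**
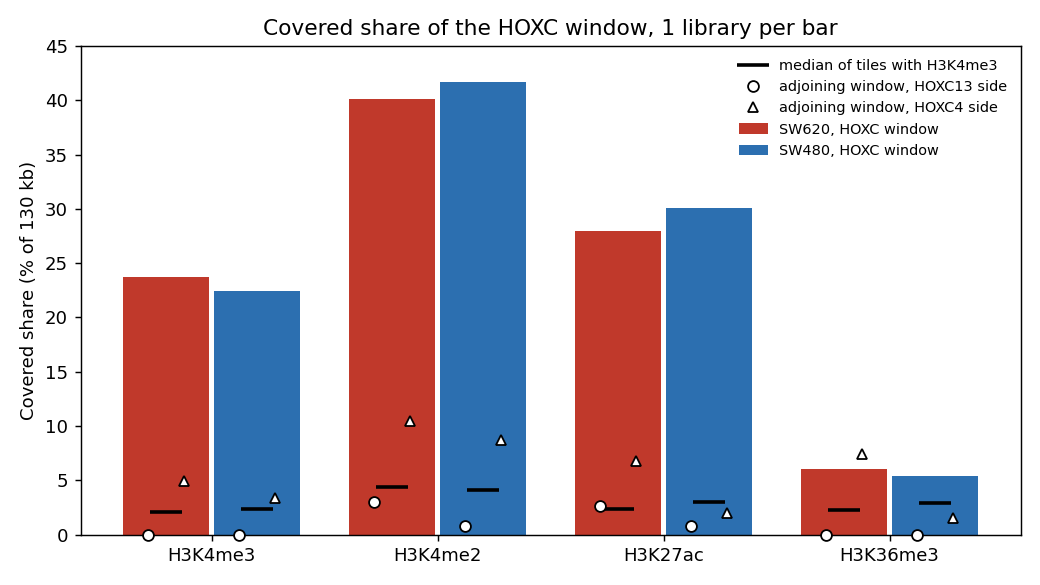
Covered share of the HOXC window (bars, percent of 130 kb) for 4 histone marks in SW620 and SW480, with the median over genome stretches that hold H3K4me3 (line) and the adjoining windows before HOXC13 (circle) and after HOXC4 (triangle). Bars for H3K4me3, H3K4me2 and H3K27ac lie between 22.4% and 41.7%, far above all 3 comparison marks, while those for H3K36me3 lie at 6.04% and 5.40%.

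The regions of H3K4me3, H3K4me2 and H3K27ac of both lines were joined into blocks wherever they overlapped, and the blocks were numbered from the HOXC13 side. There were 17 blocks between 1001 bp and 11.1 kb wide. Both lines marked 11 of them, SW620 by itself marked 2, and SW480 by itself marked 4. Blocks were built in this window alone, so how common blocks marked in 1 line are over the genome is not known. All 3 marks were present in both lines in 9 blocks, in SW620 but not all in SW480 in 1 block, and in SW480 but not all in SW620 in 1 block. Active marks covered 43.2% of the window in SW620 and 43.6% in SW480, so the lines differed in where the marks lay and hardly in how much of the cluster they took. Except at the position the rule gives for HOXC13, which gene a block belongs to was not determined, because no hg19 gene annotation was used.

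**Figure D2:**
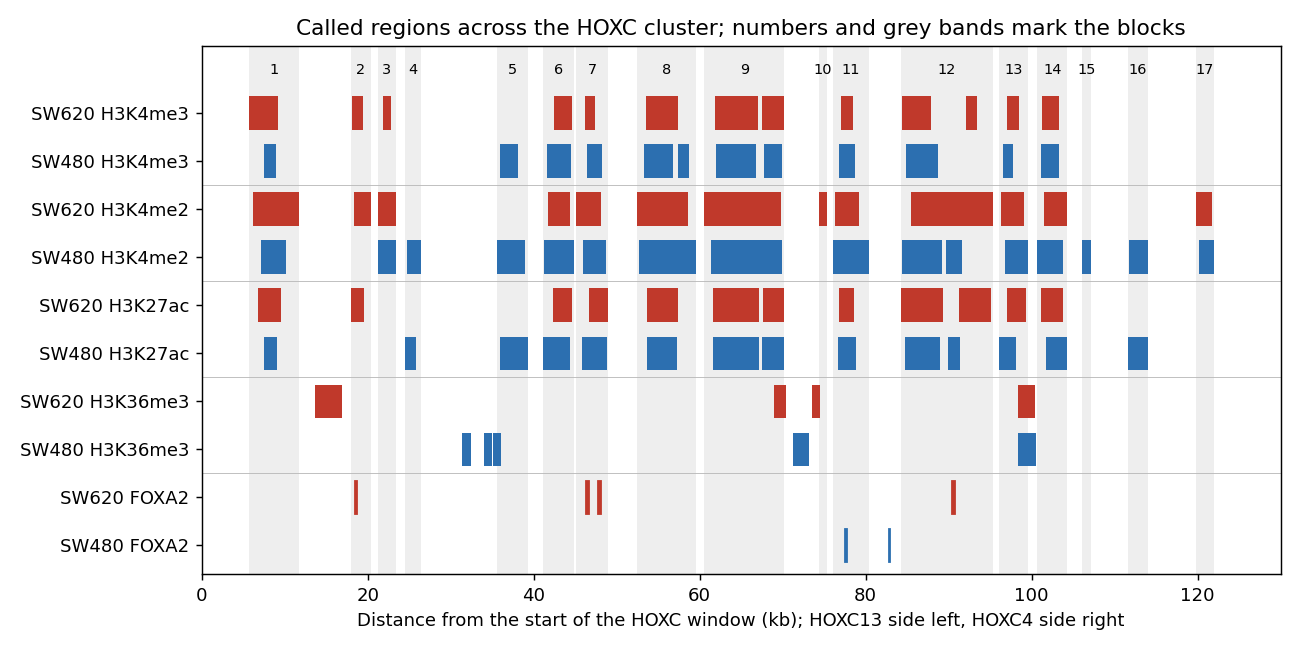
Called regions of the 10 lists along the HOXC window, with the distance in kb from its start on the horizontal axis, SW620 above SW480 for each antibody, and the 17 blocks in grey. Blocks 1, 6 to 9 and 11 to 14 carry all 3 active marks in both lines. Blocks 2 and 10 are marked in SW620 alone, and blocks 4, 5, 15 and 16 in SW480 alone.

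HOXC13 was marked more widely in SW620 at the position the rule gives for it. Block 1, from 54330709 to 54336701, covers 54.333 Mb and held all 3 active marks in both lines. Its H3K4me3 region was 3509 bp wide in SW620 and 1509 bp in SW480. H3K4me2 spanned 5487 bp in SW620, against 3087 bp in SW480, and H3K27ac 2769 bp in SW620 and 1503 bp in SW480. Each SW480 region lay wholly inside the SW620 region of the same mark. In SW620 the H3K4me3 region began 1759 bp earlier and ended 241 bp later. A lone H3K36me3 region of 3223 bp, from 54338689 to 54341911, followed this block in SW620, and the nearest SW480 H3K36me3 region lay 14477 bp away. It was the widest H3K36me3 region of the cluster in either line.

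The lines were marked in opposite places next to HOXC13. The longest stretch without any active mark in SW620 ran for 18.4 kb from 54348352 to 54366751, and blocks 4 and 5 of SW480 lay in it. The longest such stretch in SW480 ran for 11.1 kb from 54335177 to 54346226, and block 2 of SW620 and the H3K36me3 region of 3223 bp lay in it. Between 10 and 20 kb from the window's start, H3K4me3 covered 12.5% of the bases in SW620 and none in SW480. Between 30 and 40 kb from the start the order was the other way round: H3K4me3, H3K4me2 and H3K27ac covered no base in SW620, against 21.4%, 33.4% and 33.6% in SW480.

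Block 2, from 54342952 to 54345367, was the block with all 3 active marks in SW620 and none in SW480. It held an H3K4me3 region of 1253 bp, an H3K4me2 region of 2015 bp and an H3K27ac region of 1619 bp, and a SW620 FOXA2 peak from 54343421 to 54343739. The nearest SW480 regions were 859 bp away for H3K4me2, 4921 bp for H3K27ac and 9170 bp for H3K4me3. Block 3, from 54346207 to 54348397, had H3K4me2 in both lines, over 2145 bp in SW620, against 2171 bp in SW480, with both edges within 46 bp of each other. It had H3K4me3 in SW620 alone, in a region of 1001 bp from 54346787 to 54347787, and H3K27ac in neither line. That H3K4me3 region was the narrowest of SW620 in the window and stood at place 16180 of 16315 in its list.

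Block 5, from 54360557 to 54364257, was the block with all 3 active marks in SW480 and none in SW620. H3K27ac spanned 3359 bp there from 54360899, H3K4me2 3335 bp from 54360557 and H3K4me3 2135 bp from 54360940. The nearest SW620 regions lay 3110 bp away for H3K27ac, 2860 bp for H3K4me2 and 4392 bp for H3K4me3. SW480 also had 3 H3K36me3 regions of 1001 bp each, starting at 54356389, 54359026 and 54360075, the last of which ran into block 5 over 519 bp. The nearest SW620 H3K36me3 region was 14477 bp or more from each of them.

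A further 3 blocks were marked in SW480 alone. Block 4, from 54349492 to 54351396, had an H3K4me2 region of 1607 bp and an H3K27ac region of 1279 bp, with no H3K4me3. Block 16, from 54436654 to 54439004, had H3K4me2 over 2297 bp and H3K27ac over 2347 bp, again with no H3K4me3, and the nearest SW620 regions were 5819 bp away for H3K4me2 and 7830 bp for H3K27ac. Block 15 was a single H3K4me2 region of 1001 bp from 54431110. The block marked in SW620 alone besides block 2 was block 10, an H3K4me2 region of 1001 bp from 54399374 that lay 734 bp from the nearest SW480 one.

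The centre of the cluster was marked alike in both lines. Block 9, from 54385574 to 54395204, held the widest H3K4me3 region of either list in the window and the widest H3K27ac region. The H3K27ac region ran from 54386615 to 54392167 in SW620 and from 54386623 to 54392171 in SW480, so its edges differed by 8 and 4 bp and its width by 4 bp in 5553 bp. H3K4me3 spanned 5083 bp there in SW620 and 4753 bp in SW480. H3K4me2 covered the block in 1 region of 9221 bp in SW620, against 2 overlapping regions of 6121 and 3111 bp in SW480. Between 60 and 70 kb from the window's start, H3K4me2 covered 92.2% of the bases in SW620 and 86.2% in SW480, and H3K27ac covered 79.7% in SW620 and 80.7% in SW480, the densest 10 kb for H3K4me3, H3K4me2 and H3K27ac in both lines.

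Block 8, from 54377441 to 54384598, lay on the HOXC13 side of it. Its H3K27ac region was 3705 bp wide in SW620 and 3611 bp in SW480, with edges 29 and 65 bp apart. H3K4me2 spanned 6177 bp in SW620 and 6929 bp in SW480. H3K4me3 formed 1 region of 3897 bp in SW620, against 2 regions of 3487 and 1253 bp in SW480. The second of these, from 54382446, shared 2 bp with the SW620 region and counts as found in both lines for that reason.

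Blocks 6 and 7 were wider in SW480 for most marks. In block 6, from 54366112 to 54369892, the H3K27ac region was 2287 bp wide in SW620 and 3211 bp in SW480, that of H3K4me2 2651 bp in SW620 against 3645 bp in SW480, and that of H3K4me3 2153 bp in SW620 and 2853 bp in SW480. In block 7, from 54370120 to 54374003, H3K27ac spanned 2335 bp in SW620 against 3039 bp in SW480, and H3K4me3 1253 bp in SW620 and 1809 bp in SW480. H3K4me2 was the exception in block 7, with 3037 bp in SW620 and 2835 bp in SW480. Block 11, from 54401109 to 54405357, was also wider in SW480 for each active mark, with H3K4me2 over 2929 bp in SW620 and 4249 bp in SW480.

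Block 12, from 54409274 to 54420355, was the widest block and reached further in SW620. Its first part was marked in both lines, with H3K27ac over 4995 bp in SW620 against 4211 bp in SW480 and H3K4me3 over 3567 bp in SW620 and 3795 bp in SW480. The second part was different. In SW620 an H3K27ac region of 3863 bp ran from 54416199 to 54420061, an H3K4me3 region of 1337 bp from 54417126 to 54418462, and a single H3K4me2 region of 9933 bp from 54410423 to 54420355, the widest in the cluster. In SW480 the block ended with an H3K4me2 region at 54416599 and an H3K27ac region of 1517 bp at 54416406. The SW620 H3K27ac region counts as found in both lines, although 5.38% of it lay under the SW480 region. Between 90 and 100 kb from the window's start, H3K4me2 covered 81.9% of the bases in SW620 and 43.5% in SW480, and H3K27ac 61.4% in SW620 and 34.6% in SW480.

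Blocks 13 and 14 closed the stretch with H3K4me3 in both lines. In block 13, from 54421069 to 54424602, the H3K4me3 region lay at 54422029 to 54423533 in SW620 and at 54421510 to 54422762 in SW480. H3K27ac there began 936 bp later and ended 1160 bp later in SW620, so both marks sat further towards HOXC4 in SW620. H3K4me2 lay the other way, beginning at 54421280 and ending at 54424116 in SW620, against 54421858 and 54424602 in SW480. Block 14, from 54425653 to 54429326, had H3K4me3 over 2087 bp in SW620 and 2153 bp in SW480, with edges 119 and 53 bp apart. No H3K4me3 region of either line lay beyond it in the window.

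At 54.449 Mb, the position the rule gives for HOXC4, no region of any list was present. The nearest was block 17, an H3K4me2 region without H3K4me3 or H3K27ac that spanned 1877 bp in SW620 against 1769 bp in SW480, and it ended 2.30 kb before that position in SW620 and 2.04 kb in SW480. The nearest H3K4me3 lay 20.6 kb away in SW620 and 20.7 kb in SW480. This says nothing of the start that HOXC4 shares with HOXC5 in RefSeq, whose hg19 position was not used.

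**Figure D3:**
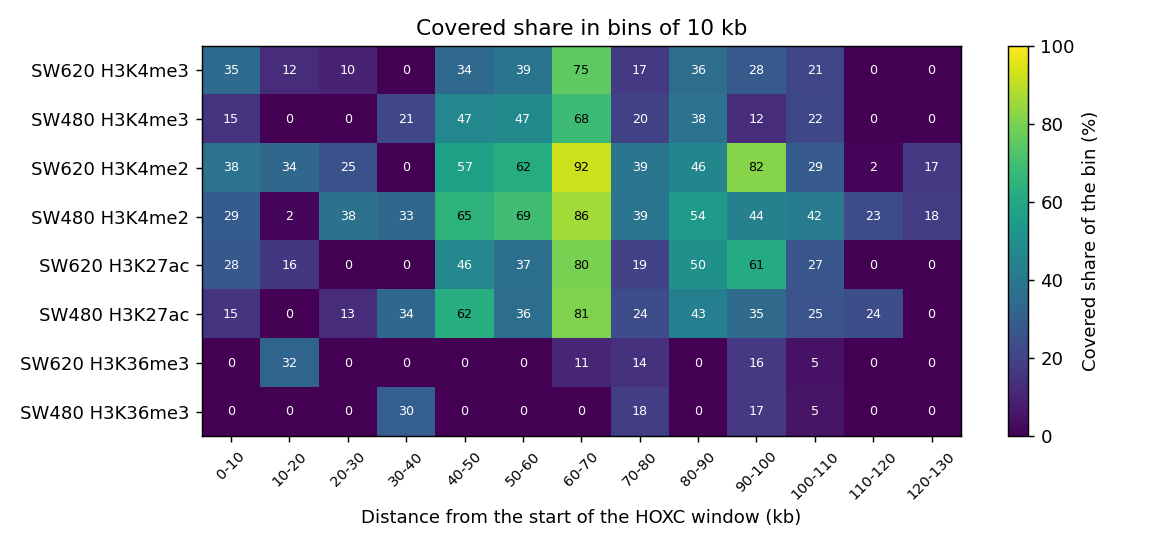
Covered share (percent, colour and number) of each 10 kb bin of the HOXC window for 4 histone marks, SW620 above SW480, by distance from the window's start in kb. H3K4me2 reaches 92.2% in SW620 and 86.2% in SW480 between 60 and 70 kb, and no active mark covers any base of SW620 between 30 and 40 kb.

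H3K36me3 was the mark least alike between the lines. One region was found in both, from 54423353 to 54425469 in SW620 and from 54423337 to 54425525 in SW480, with edges 16 and 56 bp apart. It overlapped block 13 over 1250 bp in SW620 and 1266 bp in SW480. The other 3 SW620 regions and the other 4 SW480 regions had no partner. Near block 9 the lines had neighbouring regions that did not touch: SW620 had 1507 bp from 54393914 and 1001 bp from 54398483, and SW480 had 1825 bp from 54396303 to 54398127, which lay 355 bp from the second of these. Of the H3K36me3 bases, 29.6% in SW620 and 25.4% in SW480 lay under an active mark.

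Regions with no partner in the other line were counted per list, with 95% Wilson intervals that cover counting error alone. Neighbouring regions are not independent. For H3K4me3, 3 of 13 SW620 regions had none (23.1%, 8.18 to 50.3), against 6.85% of the whole SW620 list. For SW480 H3K4me3 it was 1 of 12 (8.33%, 1.49 to 35.4), against 17.1% of the whole list. Over the whole lists the higher share was that of SW480, and in the window that of SW620, with intervals that overlap. The 3 unpartnered SW620 regions were 1253, 1001 and 1337 bp wide, against a median of 2103 bp over the whole SW620 list. They stood at places 12303, 16180 and 14963 of 16315 in that list. The unpartnered SW480 region was 2135 bp wide, at place 12339 of 18296. With an overlap of 50% of both regions required, the counts in the window were 5 in SW620 and 4 in SW480. The whole-list shares under that rule are not given here, so these counts have nothing to be set against.

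For the other marks the counts in the window were small as well. H3K4me2 had no partner in 2 of 13 SW620 regions (15.4%, 4.33 to 42.2) and 4 of 17 SW480 regions (23.5%, 9.56 to 47.3), with 30.2% of the whole SW620 list and 23.2% of the whole SW480 list. H3K27ac had none in 1 of 12 SW620 regions (8.33%, 1.49 to 35.4) and 3 of 14 SW480 regions (21.4%, 7.57 to 47.6), with 26.8% of the whole SW620 list and 32.0% of the whole SW480 list. For H3K36me3 it was 3 of 4 SW620 regions (75.0%, 30.1 to 95.4) and 4 of 5 SW480 regions (80.0%, 37.6 to 96.4), against 27.9% of the whole SW620 list and 34.3% of the whole SW480 list. With regions within 1 kb counted as partners, 1 SW620 and 3 SW480 H3K36me3 regions had none, so the H3K36me3 counts depend on the overlap rule. With the 1 bp overlap, the whole-list share lay inside the interval for H3K4me2 and H3K27ac in both lines and for H3K4me3 in SW480. It lay below the interval for SW620 H3K4me3 and, for H3K36me3, in both lines. These placements are a description and not a test, because the intervals treat neighbouring regions of 1 library as independent.

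Measured in bases, the cluster was shared to a similar degree for the 3 active marks. Of the bases covered in either line, 57.6% were covered in both for H3K4me3, 58.5% for H3K4me2 and 55.1% for H3K27ac, while over the whole lists these shares were 67.3%, 52.7% and 48.2%. SW620 alone covered 23.5% of the H3K4me3 bases in the window, against 11.7% over the whole lists. H3K36me3 was shared over 16.6% of its bases in the window, against 49.7% over the whole lists.

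**Figure D4:**
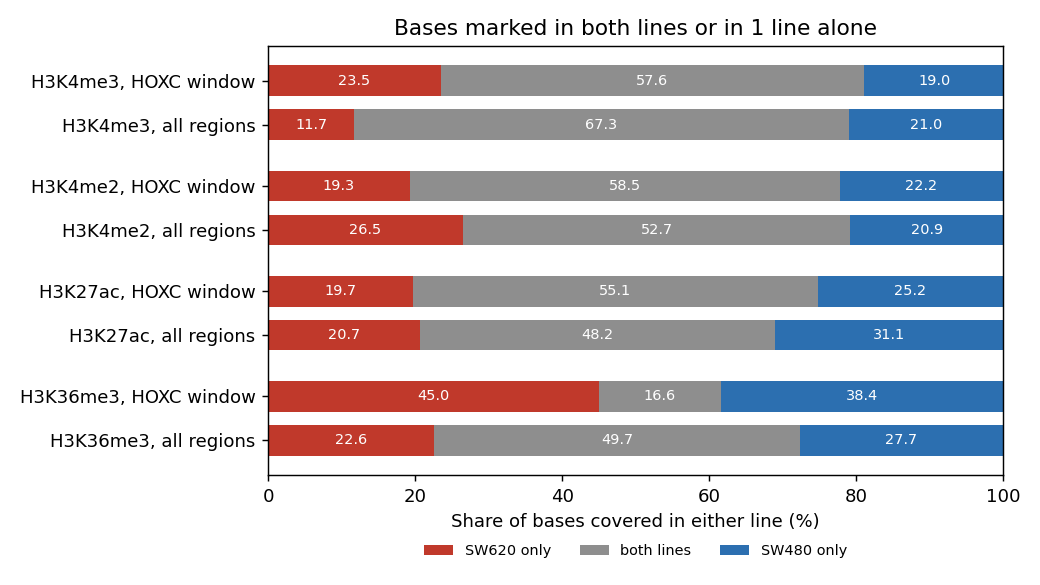
Share (percent) of the bases covered in either line that were covered in SW620 only, in both lines or in SW480 only, for each histone mark in the HOXC window and over the whole lists. Both lines covered between 55.1% and 58.5% of the bases of the 3 active marks in the window, and 16.6% of the H3K36me3 bases.

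The libraries differed in ways that can bear on such counts. Total tags lay between 12791745 and 47867295 per library. For H3K27ac, 27.5% of the SW620 tags and 58.5% of the SW480 tags lay in regions, and for H3K4me3 it was 52.0% of the SW620 and 73.0% of the SW480 tags. For H3K4me2 it was 50.7% of the SW620 and 45.8% of the SW480 tags. The part of depth and enrichment in the differences between the lines was not tested.

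Marks of the same line mostly lay on each other. Each of the 12 SW620 H3K27ac regions overlapped H3K4me3 of the same line, a pairing found for 59.9% of the whole SW620 list. In SW480, 11 of 14 H3K27ac regions did so, against 67.0% of the whole list. The 3 without it were those of blocks 4 and 16 and the second region of block 12, from 54414890. All 13 SW620 and 12 SW480 H3K4me3 regions and all 12 SW620 and 14 SW480 H3K27ac regions overlapped H3K4me2 of the same line, as did at least 91.3% of the regions of each of these whole lists. By bases, the triple combination of H3K4me3, H3K4me2 and H3K27ac without H3K36me3 took 24.9 kb in SW620 and 26.2 kb in SW480. H3K4me2 with H3K27ac alone took 6.40 kb in SW620 and 10.2 kb in SW480, and H3K4me2 alone 16.9 kb in SW620 and 13.6 kb in SW480. In all, 60.1% of the window's bases had the same combination of the 4 histone marks in both lines, unmarked bases included.

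Regions found once in each line were compared by their edges. For H3K27ac there were 11 such pairs, of which 7 were wider in SW620 and 4 in SW480, and the median of the larger edge shift was 516 bp. For H3K4me2 the 9 pairs were wider in SW620 in 4 cases and in SW480 in 5, with a median shift of 799 bp, and for H3K4me3 the 9 pairs divided in the same way with a median of 755 bp. The H3K27ac edges of block 9 were the closest pair, and those of the second part of block 12 the farthest, with a shift of 3655 bp.

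FOXA2 had 4 of its 12372 SW620 peaks and 2 of its 5207 SW480 peaks in the cluster, and none of them coincided. The whole lists thus differed in number in the same direction as the counts in the cluster. Over the whole lists, 98.1% of SW620 and 95.5% of SW480 peaks had no partner, so this is the usual state of these lists. The SW620 peaks lay in block 2 at 54343421 to 54343739, in block 7 at 54371287 to 54371605 and at 54372748 to 54373066, and in block 12 at 54415434 to 54415752. All 4 overlapped H3K4me2 of SW620, 2 overlapped H3K27ac and 2 overlapped H3K4me3, against 51.7%, 33.9% and 13.1% of the whole SW620 list.

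The FOXA2 positions of SW620 were also marked in SW480 in 3 of the 4 cases. The exception was block 2, where the peak lay on H3K4me3, H3K4me2 and H3K27ac in SW620 and on none of these in SW480. In block 7 both peaks lay on all 3 active marks of SW480. In block 12 the peak lay on H3K4me2 and H3K27ac of SW480 and, in SW620, on H3K4me2 in the gap between the H3K27ac regions. Active marks covered 43.6% of the window in SW480. The share of the whole SW620 peak list that lay on SW480 marks is not given here. Of the SW480 peaks, that from 54402572 to 54402698 lay in block 11 on all 3 active marks of both lines, and that from 54407760 to 54407886 lay outside every block. They stood at places 5155 and 3565 of 5207 in the SW480 list. The SW620 peaks stood at places 5737, 9067, 9778 and 3536 of 12372 in theirs. Over the whole SW480 list, 2.19% of peaks lay on H3K4me3 of SW480, 5.61% on H3K4me2 and 4.47% on H3K27ac. The distance from a SW620 peak to the nearest SW480 peak was 7547 bp or more. The share of FOXA2 tags in peaks was 2.25% in SW620 and 0.590% in SW480, and its part in the difference in number was not tested.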

How the data were processed

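Per the file headers, the authors used HOMER findPeaks on each library, with that line's input as background, in the histone style with at least 4-fold over input and over the local background, or, for FOXA2, in the factor style with at least 2-fold for both, at a false discovery rate of 0.001. Per the submitters' processing notes, positions are on hg19. Neither the aligner nor HOMER's version is stated in the sources used here. The deposited score was 1 in every row, so positions were the one measurement used. The rows were not in order of position. For some regions the place in the list, counted from its top, is given without being read as strength. The rows of all 10 lists equalled the totals in their headers.

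Starts are printed counted from 1. Overlaps of at least 1 bp were found with pandas 2.3.3 and numpy 2.4.6 and tested on simulated regions against bedtools 2.31.1. Intervals came from scipy 1.17.1 and figures from matplotlib 3.10.9. The 9 members are always named. Named regions were the 3 widest per histone list, the unpartnered ones of at least 2 kb or among the 3 widest unpartnered of their list, and all FOXA2 peaks. Block edges and the other regions were added after their values were seen. The window, members and comparisons were chosen with earlier results of these data known. Proteins of the members and the 2 input libraries were not analysed here. Alternatives changed the window, the overlap rule, the minimum width, the list length and the joining of regions.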

Additional observations from a re-analysis of the deposited data

How the results depend on the processing

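Of 130 alternative values over 40 results, 119 stayed within 1.5 times a count or inside the 95% Wilson interval of a share, taken over units of 1 kb. These included every value with the window widened by 10 kb or narrowed by 5 kb at both ends, with regions wholly inside, with regions up to 1 kb apart joined and with both lists of a mark cut to the same length by width. No region crossed the window's edges or lay in the 5 kb trimmed at either end. The counts wholly inside and in the narrowed window could therefore not change, and they say nothing of stability. With regions of at least 2 kb alone, H3K4me3 had 7 regions in SW620 and 7 in SW480, and H3K36me3 had 2 in SW620 and 1 in SW480. With an overlap of 50% of both regions required, unpartnered H3K4me3 regions numbered 5 in SW620 and 4 in SW480, H3K27ac regions 3 in SW620 and 5 in SW480, and SW480 H3K4me2 regions 7. With regions within 1 kb counted as partners, no SW620 H3K4me2 region (0) and 1 SW620 H3K36me3 region was left without one, so block 2 and block 10 rest on gaps under 1 kb for H3K4me2. Whole-list shares under these overlap rules are not given here. A region missing from a list can lie just under the caller's threshold, and no score was usable to tell. Place in the list was not used for this either, because the meaning of the row order was not established. No paired analysis was possible because each antibody and line had 1 library and no comparison was tested.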
